A study of Homo sapiens with 4 samples.

Results

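The genes SPRY1, SPRY2, SPRY4, SPRED1, SPRED2, SPRED3, DUSP4, DUSP5 and DUSP6 encode inhibitors of RAS-ERK signalling, and they were looked up by gene ID in a list of m6A peaks from MDA-MB-231 cells. A peak was listed for 8 of the 9 genes, with 15 peaks in all among the 20261 peaks on 10140 gene IDs of the whole list. SPRED1 was the member without a peak. MDA-MB-231 is an established line of human triple negative breast cancer. Poly(A) RNA of cells labelled shNS was fragmented and either immunoprecipitated (IP) with an antibody to m6A, in 2 libraries, or sequenced directly as input, in 2 further libraries. The treatment field of the IP libraries names YTHDC1. Since titles and protocol both speak of the m6A antibody, these libraries were taken as m6A IP. Both groups come from cells with the same label, so the comparison of IP with input is the only one in the design. Of the genes expected to be expressed in this mesenchymal, receptor-negative line, VIM had 1 listed peak and CD44 had none. Of those expected to be low or absent, ERBB2 had 3, and CDH1, EPCAM, ESR1 and PGR had none. A listed peak is not a measure of expression.

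RAS-ERK signalling carries growth factor signals from receptor tyrosine kinases through RAS, RAF and MEK to the kinase ERK. Active ERK switches on genes whose products shut the pathway down again. Sprouty proteins (SPRY) act at the level of receptor adaptors and RAF. SPRED proteins bring the RAS-inactivating protein neurofibromin to the membrane. DUSP4, DUSP5 and DUSP6 are phosphatases that remove the activating phosphates from ERK, DUSP5 and DUSP4 mainly in the nucleus and DUSP6 in the cytoplasm. Adenosines inside an mRNA can carry a methyl group at the N6 position (m6A), written by the METTL3 and METTL14 complex. The mark is placed mainly in a short sequence context called DRACH (any base but C, a purine, A, C and any base but G, in that order) and is usually dense in long internal exons and around the stop codon.

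Each peak carries 1 value and none for a single library. It is a score deposited by the authors and taken here to be a p-value for more reads in IP than in input. Peaks with smaller scores are called stronger, and strength is given here as −log10 of the score. The list holds no read counts and no fold enrichment. Depth is therefore unknown, no spread between replicates can be given for any value, and no difference between members was tested. A gene without a peak may be unmethylated, weakly expressed or below detection, and the list does not separate these. Of RefSeq protein-coding genes, 40.8% had a listed peak. The share was 29.3% for plus-strand genes and 55.6% for minus-strand genes with a known strand in the promoter table, and the minus strand held 72.3% of the peaks. Members were therefore set beside genes of their own strand.

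The 9 members divided by strand. SPRY2, SPRY4, SPRED2, DUSP4 and DUSP6 lie on the minus strand, and all 5 had a peak, 11 in total. SPRY1, SPRED1, SPRED3 and DUSP5 lie on the plus strand, and 3 of these 4 had a peak, 4 in total. The strongest peak of a minus-strand member had a −log10 score between 246 and 323, and that of a plus-strand member between 3.36 and 12.3. The ranges did not overlap. Strongest peaks also differed by strand over the whole list. The median −log10 score was 21.4 on the minus strand (quartiles 6.10 to 81.6) and 6 on the plus strand (3.77 to 13.4). Strand and gene cannot be told apart as sources of the difference between members, because each gene has 1 strand.

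**Figure D1:**
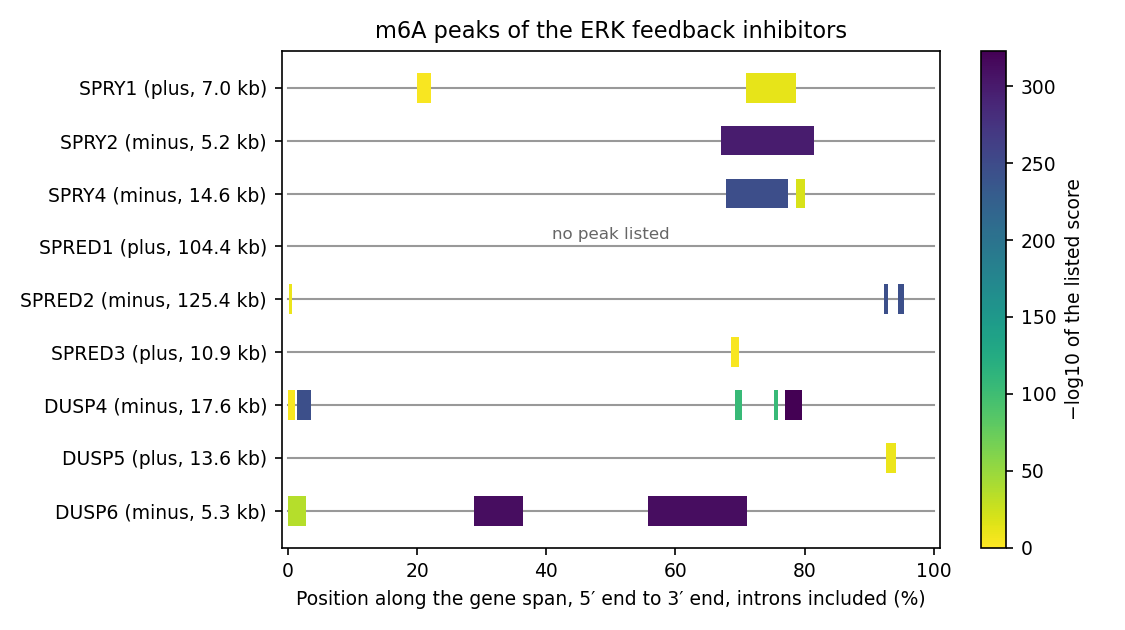
Peaks of the 9 members along their RefSeq gene span (horizontal axis, percent of the span from the 5′ to the 3′ end, introns included), with each block of a peak as a box coloured by −log10 of the listed score. Minus-strand members carry the dark boxes (strongest peaks of 246 to 323) and also light ones, such as the 5′-most DUSP4 peak (3.72). Plus-strand members carry only light ones (strongest peaks of 3.36 to 12.3, 5′ peak of SPRY1 at 2.72), and SPRED1 has none.

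Sequence could be read for 2 member peaks, where a peak overlapped the window of 300 bases around a gene start in the RefSeq promoter table (GRCh38.p14). The first SPRY1 peak lay wholly inside the window of an internal SPRY1 start and ended 48 bases before it. Its 150 bases were 70% G and C and held 4 matches to DRACH on the transcribed strand and none to GGAC, the core most often methylated. The sites are shown because they are the places in this peak where the modification could lie by sequence. Capitals mark the DRACH match:
SPRY1 site at base 4 of the peak, chr4:123398183-123398203, plus strand: atttgtaaAAACTggttcttg
SPRY1 site at base 32, chr4:123398211-123398231, plus strand: gctgcagaAGACCtcccgagg
SPRY1 site at base 80, chr4:123398259-123398279, plus strand: accagccgTGACAggtccggg
SPRY1 site at base 116, chr4:123398295-123398315, plus strand: ccgcgggaGAACTgccctccg

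The same 150 bases of all 35116 promoter windows held a median of 2 DRACH matches, and 21.0% of the windows held 4 or more. At least 1 match was found in 86.4% of them, and GGAC in 42.1%. The 4 matches in SPRY1 are a description of the letters and do not say which adenosine was methylated. In DUSP6, the first 50 bases of the 5′ peak were covered by the table and held no DRACH match, against 49.6% of all windows with at least 1 match in those 50 bases. The remaining bases of that peak were not read here.

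All 3 Sprouty genes of the set had a peak, 5 peaks with 3053 spliced bases together. SPRY2, a widely studied inhibitor of growth factor signalling to ERK, lies on chromosome 13 (80335976 to 80341126, minus strand, GRCh38). It had 1 peak of 744 bases from 80336928 to 80337671, with a score of 1e-299. This peak was stronger than 96.8% and longer than 91.5% of minus-strand peaks in the list. It began 3455 bases into the gene span, counted from the 5′ end, and 952 bases of the span followed it. SPRY2 had no other peak.

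SPRY4 on chromosome 5 (142310430 to 142325021, minus strand) encodes a Sprouty protein that also restrains RAS-ERK signalling. It had 2 peaks, with 1621 spliced bases. The first, 142313724 to 142315133, was 1410 bases long, the longest of the 15 member peaks, with a score of 1e-247. The second, 142313334 to 142313544, was 211 bases long with a score of 7.9e-20 and began 179 bases downstream. In SPRY4 the longer peak was also the stronger. The RefSeq long non-coding RNA SPRY4-IT1 lies inside the SPRY4 span, at 142317620 to 142318322, and had no listed peak.

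SPRY1 on chromosome 4 (123396795 to 123403760, plus strand) had 2 peaks, with 688 spliced bases. The 5′ peak, 123398188 to 123398337, whose DRACH sites are printed above, was weak, with a score of 0.0019, and only 9.66% of plus-strand peaks were weaker. The stronger peak, 123401734 to 123402271, was 538 bases long with a score of 5e-13, stronger than 80.2% and longer than 95.4% of plus-strand peaks. Its score is far from that of SPRY2 and SPRY4, but it ranked high among plus-strand peaks. As a percent of the gene span, introns included, the midpoint of the strongest peak lay at 74.8% of the gene span in SPRY1, 74.3% in SPRY2 and 72.6% in SPRY4. In bases the places differed more, with 1489 bases of the span left after the peak in SPRY1, 952 in SPRY2 and 3294 in SPRY4.

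Of the 3 SPRED genes, 2 had a peak, 3 peaks with 1678 spliced bases together. SPRED2 on chromosome 2 (65307175 to 65432599, minus strand), which encodes a membrane-bound inhibitor of RAS activation, had 2 peaks near opposite ends of a span of 125425 bases. The 5′ peak, 65432069 to 65432458, was 390 bases long with a score of 1e-10 and began 141 bases from the start of the span. The 3′ peak, 65313005 to 65316735, had a score of 1e-246 and 1167 spliced bases. It was split into blocks of 2 and 1165 bases with 2564 bases between them, so that nearly all of it lay in 1 block. Between the peaks of SPRED2 lay 115333 bases without a listed peak.

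SPRED3 on chromosome 19 (38388697 to 38399587, plus strand) had 1 peak of 121 bases, 38396177 to 38396297, with a score of 0.00044. This was the shortest of the 15 member peaks, and 24.3% of plus-strand peaks were weaker. SPRED1 on chromosome 15 (38252836 to 38357249, plus strand), the member mutated in Legius syndrome, had no peak on either strand within its span of 104414 bases. The nearest same-strand peak belonged to FAM98B, 96878 bases away. In the SPRED family, −log10 of the smallest score was thus 246 for SPRED2 and 3.36 for SPRED3, with no peak for SPRED1.

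All 3 phosphatase genes had a peak, 7 peaks with 2881 spliced bases together. DUSP4 on chromosome 8 (29333064 to 29350684, minus strand) had 4, the most of any member. Of minus-strand genes in the list, 15.2% had as many or more. These fell in 2 pairs, 1 near the start of the gene and 1 in the later part. At the 5′ end, 29350504 to 29350684 (181 bases, score 0.00019) began at the first base of the gene span, and 29350056 to 29350445 (390 bases, score 1e-245) followed 58 bases later. Towards the 3′ end, a peak from 29337343 to 29338483 with blocks of 202 and 69 bases had a score of 1e-105. The last, 29336655 to 29337134, was 480 bases long with a score listed as 0, which is too small to be stored and was set to a −log10 of 323. DUSP4 was the only member with a peak listed at 0, a value it shared with 5.83% of minus-strand genes.

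DUSP6 on chromosome 12 (89347235 to 89352501, minus strand), a cytoplasmic phosphatase specific for ERK, had 2 peaks with 1349 spliced bases. The 3′ peak, 89348760 to 89350983, had a score of 1e-312. It was made of a block of 396 bases and a block of 802 bases with 1026 bases between them, and was therefore listed across a splice junction. The 5′ peak, 89352351 to 89352501, was 151 bases long with a score of 1.6e-36 and started at the first base of the gene span. Its 151 bases were all shared with a plus-strand peak of ENSG00000274021, 89352351 to 89352559, whose score was 1.6e-35. The list does not say which of these genes the 5′ peak belongs to. Of the 15 member peaks, this was the only 1 that shared bases with an opposite-strand peak (6.67%, against 10.0% of all peaks and 7.07% of minus-strand peaks). The RefSeq readthrough gene POC1B-DUSP6 also spans most of DUSP6 on the same strand, and no peak was listed under its name.

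DUSP5 on chromosome 10 (110497907 to 110511533, plus strand), a nuclear phosphatase of ERK, had 1 peak of 210 bases, 110510519 to 110510728. Its score was 1.2e-09, stronger than 74.1% of plus-strand peaks. After the peak 805 bases of the span remained, the shortest such distance among the strongest peaks of the 8 members. The divergent non-coding gene DUSP5-DT had the nearest opposite-strand peak, 23342 bases from DUSP5.

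Ranked among genes of the same strand, the minus-strand members lay close together. Of 6624 minus-strand genes in the list, 94.2% had a weaker strongest peak than DUSP4, 93.9% than DUSP6, 93.6% than SPRY2 and 91.8% than SPRY4 and SPRED2 alike. A score at or under that of SPRED2, the weakest of these 5, was reached by 8.20% of minus-strand genes and 1.42% of plus-strand genes. The plus-strand members were spread out. Of 3516 plus-strand genes, 72.9% had a weaker strongest peak than SPRY1, 65.5% than DUSP5 and 17.9% than SPRED3. SPRY1 and DUSP5 were thus in the upper part of their strand, below the place of the minus-strand members on theirs. Members and ranks were not tested against other genes.

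**Figure D2:**
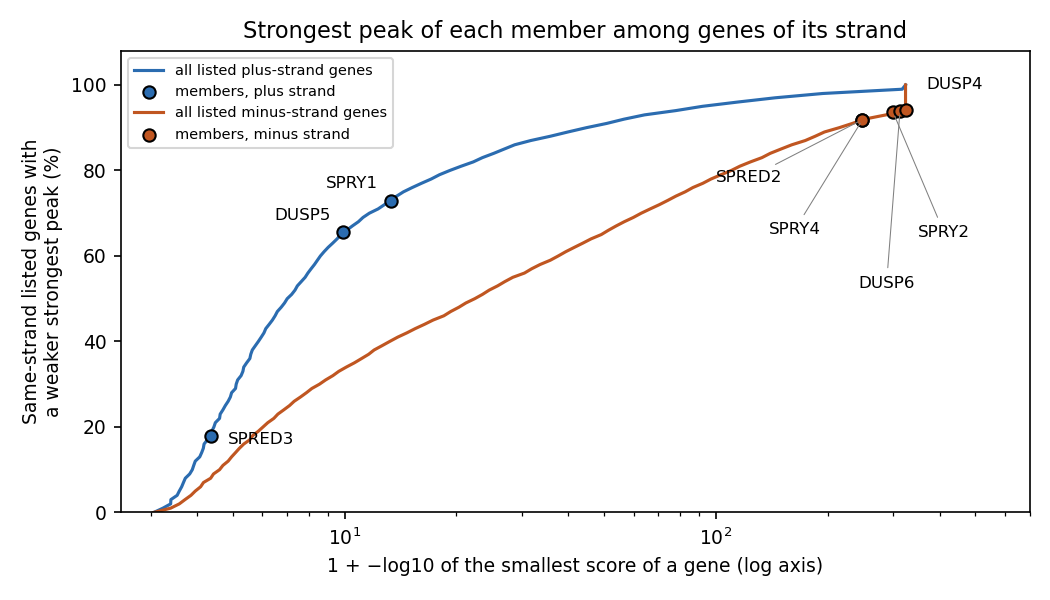
Strongest peak of each member (points) on the distribution of all listed genes of its strand (lines), with 1 plus −log10 of the smallest score on a log axis and the percent of same-strand genes with a weaker strongest peak on the vertical axis. The 5 minus-strand members sit between 91.8% and 94.2%, and the plus-strand members at 17.9% (SPRED3), 65.5% (DUSP5) and 72.9% (SPRY1).

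As a common threshold the median score of the list, 5.2e-08, was used. It was reached by 7 of the 8 members with a peak, against 60.7% of all genes in the list. On the minus strand it was 5 of 5 members against 70.7% of genes, and on the plus strand 2 of 3 against 42.1%. Of the 15 peaks, 12 were at or under the median, 10 of 11 on the minus strand and 2 of 4 on the plus strand. The others were the 5′ peak of SPRY1, the SPRED3 peak and the 5′-most peak of DUSP4. The share of all peaks of each strand at or under the median is not given here, so the count of peaks has no background of its own strand. The members with a peak had 1.88 peaks on average over both strands. By strand this was 11 peaks in 5 minus-strand members and 4 peaks in 3 plus-strand members. The mean over all listed genes was 2.21 ± 1.59 (mean ± SD over genes) on the minus strand and 1.60 ± 1.01 on the plus strand.

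The summed length of the peaks varied more than their number. SPRY4 had the most spliced peak bases (1621), more than 90.2% of minus-strand genes, and SPRED2 (1557) exceeded 89.2%. DUSP6 (1349) exceeded 85.5%, DUSP4 (1322) 85.0% and SPRY2 (744) 63.6%. On the plus strand, SPRY1 (688) exceeded 88.5% of genes, DUSP5 (210) 41.0% and SPRED3 (121) 14.2%. By this measure the rank of SPRY1 on its strand was close to those of SPRY4 and SPRED2 on theirs, while its scores were weaker than theirs. Per kb of gene span, DUSP6 led with 256 peak bases, followed by SPRY2 with 144, SPRY4 with 111 and SPRY1 with 98.8. DUSP6, SPRY2 and SPRY1 have the shortest spans of the members with a peak. The order did not follow the span alone, because SPRED3 and DUSP5 have shorter spans than SPRY4 but had fewer peak bases per kb. SPRED2, with the longest span of a member that had a peak, had 12.4, more than 39.5% of minus-strand genes.

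By steps of 10% along the gene span, member peaks were most frequent in 2 steps. The midpoint of 6 peaks, from SPRY1, SPRY2, SPRY4 and DUSP4, was between 70% and 80% of the span. That part held 9.22% of plus-strand and 8.28% of minus-strand peaks of coding genes. It is named because it held the most member peaks, so the contrast is not a test. A further 4 midpoints, from SPRED2, DUSP4 and DUSP6, were in the first 10% of the span. They were 26.7% of member peaks (95% Wilson interval 10.9 to 52.0%, counting error only), and the same part held 13.2% of plus-strand and 12.1% of minus-strand coding peaks. The DUSP6 peak among these 4 shared all its bases with a plus-strand peak of another gene ID. The final 10% held 2 member peaks, from SPRED2 and DUSP5, or 13.3% (interval 3.74 to 37.9%). It held 36.4% of plus-strand and 37.8% of minus-strand coding peaks. Peaks of 1 gene are not independent, and 6 of the 15 are from DUSP4 and DUSP6. Among the 6 at 70% to 80%, SPRY4 and DUSP4 each gave a pair of neighbouring peaks, 179 and 208 bases apart.

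**Figure D3:**
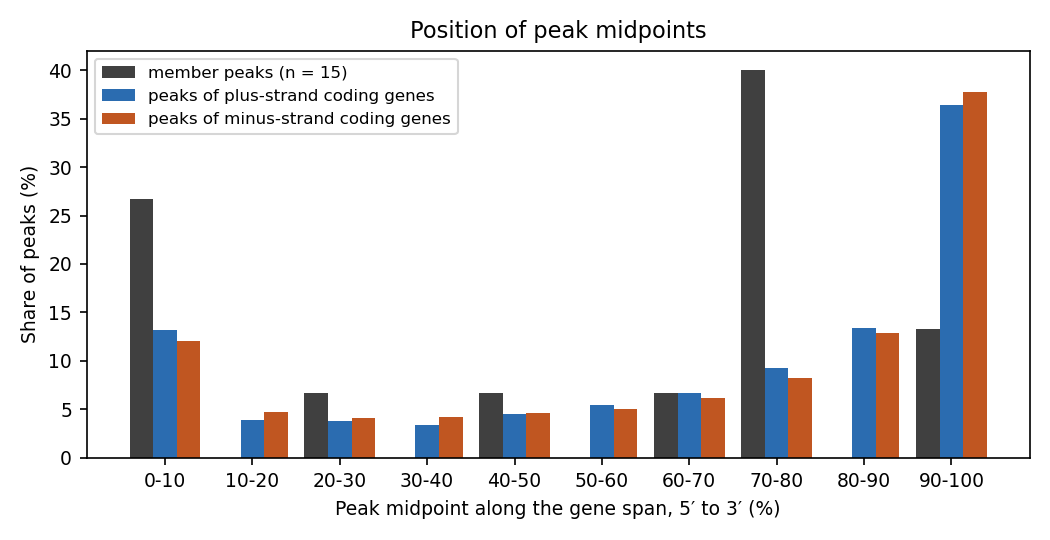
Share of peaks (vertical axis, percent) by the midpoint of the peak along the gene span in steps of 10% (horizontal axis, 5′ to 3′), for the 15 member peaks and for peaks of coding genes on each strand. Member peaks are most frequent at 70 to 80% (6 of 15) and 0 to 10% (4 of 15), and coding peaks at 90 to 100% (36.4% and 37.8%).

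In bases rather than percent, the strongest peak of a member left between 805 bases (DUSP5) and 5830 bases (SPRED2) of the span downstream, with a median of 2408. The median was 3259 bases over plus-strand and 2940 over minus-strand coding genes. The midpoint was past 50% of the span in 7 of the 8 members, against 72.1% of plus-strand and 74.2% of minus-strand coding genes. In DUSP6, whose strongest peak ran over a splice junction, it was at 49.9%, in the gap between the blocks of that peak. The 3′ block held 802 of the 1198 spliced bases of the peak. The span includes introns and the ends of all RefSeq transcripts, so a percent of it is not a place on 1 mRNA. Which exon or untranslated region a peak belongs to was not analysed here.

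Peaks at the very 5′ end were seen in minus-strand members only. A peak reached the first base of the span in DUSP4 and DUSP6, 2 of the 5 minus-strand members, against 7.10% of minus-strand coding genes. The DUSP4 peak was weak (score 0.00019). All 151 bases of the DUSP6 peak were shared with a plus-strand peak, so its gene is uncertain. A peak midpoint in the first 10% together with another past 50% of the span was found in DUSP4 and SPRED2, against 15.5% of minus-strand coding genes. For the 3 plus-strand members with a peak both counts were 0, and the shares over plus-strand coding genes were 3.61% and 6.36%. Whether members differ between strands in this was not tested.

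No member peak overlapped a peak of another gene on its own strand. On the opposite strand, the 5′ peak of DUSP6 shared all its bases with a peak of ENSG00000274021. The next nearest opposite-strand peak was that of GGN, 1512 bases from the span of SPRED3. The nearest same-strand peak of another gene ID was between 59615 bases (KCNK6, from SPRED3) and 929679 bases (RBM26, from SPRY2) from the member's span. All 15 peaks lay inside the span of their gene. None was in the second part of the file, in which the chromosomes start again.

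The rest of the pathway was read from lists of 57 genes in 6 groups. A peak was listed for 33 of them, against 40.8% of all coding genes. These were 11 of 22 plus-strand and 22 of 28 minus-strand genes. The strand of 7 more, none with a peak, was not known. Only genes without a peak are thus left out of the counts by strand, which can make these shares too high. The list median or below was reached by 23, which were 5 of 11 listed genes on the plus strand (42.1% of all listed plus-strand genes) and 18 of 22 on the minus strand (70.7%). Among related inhibitors, 3 of 8 further DUSP and Sprouty genes had a peak, a share near that of all coding genes. By strand it was 3 of 6 on the minus strand, against 55.6% of coding genes. On the plus strand it was 0 of 2, against 29.3%. The 3 genes with a peak were DUSP1 (smallest score 1e-107), DUSP7 (7.9e-53) and DUSP10 (2e-33), whose products act on several MAP kinases or, for DUSP7, on ERK. These scores were weaker than the strongest of each of the 5 minus-strand members. Of 7 other feedback genes, 5 had a peak, 2 of 3 on the plus strand and 3 of 3 on the minus strand, with 1 of unknown strand. ERRFI1, an inhibitor of the EGF receptor, and PHLDA1 each had a peak listed at 0, like DUSP4, and IL17RD, which holds ERK in the cytoplasm, had a smallest score of 1.6e-07.

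Upstream, 10 of 14 receptor and adaptor genes had a peak. The strongest were SOS1 (1e-126), SOS2 (1e-105), which exchange the nucleotide on RAS, and the receptor FGFR1 (6.3e-75). Of 8 RAS genes and regulators, only LZTR1 had a peak, and it was weak (0.0029). Among RAF, MEK, ERK and RSK genes 6 of 10 had a peak, among them RPS6KA3 with a smallest score of 2.5e-30 and MAPK3, which encodes ERK1, with 5.5e-09. Of 10 ERK target genes 8 had a peak, led by MCL1 (listed at 0), FOSL1 (1.3e-99) and the plus-strand gene IER2 (5e-44). The RAS genes and their regulators had the fewest listed genes of the 6 groups, 1 of 8. By strand this was 1 of 4 plus-strand and 0 of 2 minus-strand genes, against 29.3% and 55.6% of coding genes. Receptors and adaptors had 4 of 4 and 6 of 6, RAF to RSK genes 1 of 4 and 5 of 6, and ERK targets 3 of 5 and 5 of 5. The strand was not known for 2 RAS genes or regulators and 4 receptor or adaptor genes, none with a peak. These counts were not tested.

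**Figure D4:**
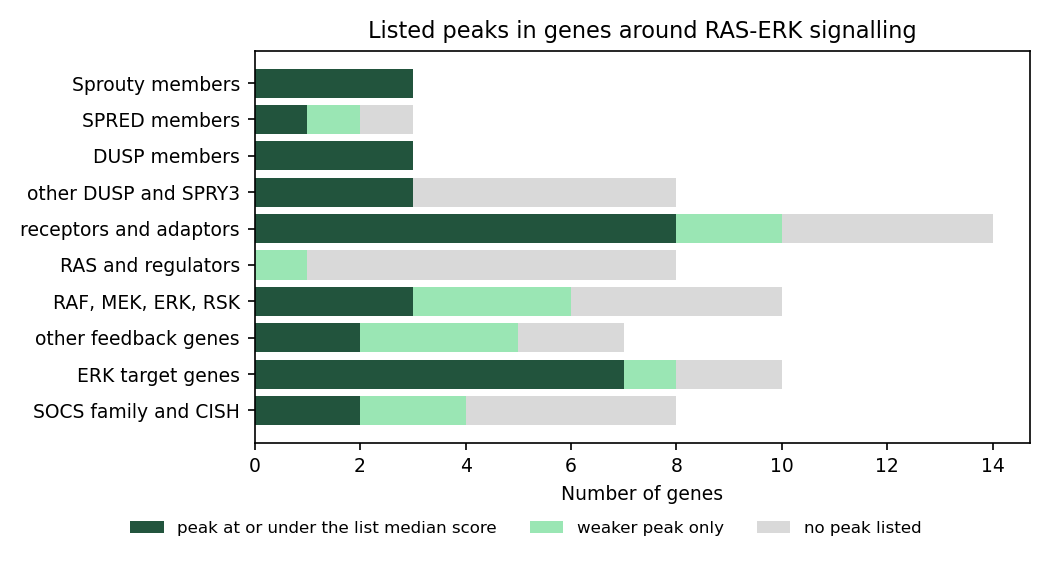
Number of genes (horizontal axis) in each list with a peak at the list median score or below, with a weaker peak only and with no listed peak. The Sprouty and DUSP members have a peak at the median or below in 3 of 3 genes each, SPRED members in 1 of 3, and the RAS genes and regulators in 0 of 8.

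The SOCS family, feedback inhibitors of cytokine signalling, offers a comparison outside the pathway. With CISH, 4 of 8 genes had a peak, and 2 had one at or under the list median. SOCS3 reached 1e-267 and so lay between SPRY4 and SPRY2, CISH reached 2.5e-24 and SOCS4 on the plus strand 5e-06. Presence in the list was thus 8 of 9 for the ERK inhibitors and 4 of 8 for the SOCS genes, against 40.8% of all coding genes. On the minus strand it was 5 of 5 members and 2 of 3 SOCS genes, against 55.6% of coding genes. On the plus strand it was 3 of 4 members and 2 of 2 SOCS genes, against 29.3%. The strand of 3 SOCS genes, none with a peak, was not known, so the SOCS shares by strand can be too high. The difference between members and SOCS genes was not tested.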

How the data were processed

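The authors aligned reads with STAR to GENCODE v33 (hg38 per the submitters' processing notes), ran exomePeak with default parameters, and kept peaks by fold enrichment and FDR. The list has 1 score per peak and names no library. How the replicates entered the calls is not given in the sources used here. The deposited score was read as a p-value, and the header does not say whether it is an FDR. Scores of 0 were set to a −log10 of 323. Gene IDs without version were matched to symbols (10103 of 10140), and gene spans were taken from RefSeq GRCh38.p14. Coordinates are written from 1. Overlap required at least 1 shared base of blocks on the genome. Percentiles are the share of same-strand genes with a weaker score or fewer bases. DRACH was searched on the transcribed strand with overlaps allowed, with 8 bases printed on either side. All members were named, and up to 3 genes per other list by smallest score, ties going to the longest peak. A gene that this rule selects is not reported here. The members and lists were chosen with earlier results of these data known. No test was made. The functions were tested on simulated data (Python 3.11.15, pandas 2.3.3, scipy 1.17.1). Wilson intervals cover counting error only.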

Additional observations from a re-analysis of the deposited data

How the results depend on the processing

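The 5 summary values were recomputed under 16 alternatives in all, and none moved outside its interval or, for a count, by over 1.5 times. The number of member peaks (15) was 12 with peaks at or under the list median, 14 without peaks that overlap one on the opposite strand, and 15 after merging or in the first part of the list alone. The number of members with a peak (8) was 7 at or under the median, where SPRED3 was lost. The share of member peaks in the final 10% of the span ranged from 8.33% (peaks in 1 block, 1.6 times below the 13.3% of all member peaks) to 16.7% (at or under the median). The interval of this share was wide (3.74 to 37.9%), so staying inside it says little. The median percentile of the strongest peak (91.8) was 90.2 among protein-coding genes and 94.2 among genes of both strands, and that of spliced bases (85.3) was 82.2 per length of span. With 8 members, the interval of a median runs from the lowest to the highest member, so these medians could hardly have moved. No paired analysis was possible because every peak has a single value and the file names no library, and for the same reason no replicate could be left out. Without the depth, SPRED1 and other genes with no peak cannot be called unmethylated.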
